A study of Rattus norvegicus with 24 samples.

Results

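The 10 genes described here are the mitochondrially encoded respiratory chain genes of the rat liver tables, chosen by their Ensembl gene IDs. They are 10 of 18056 gene IDs. All 10 are present in both deposited tables, and all 10 passed the filter on low counts in every comparison. The names belong to the pairing of ID and name given with the selection, since the tables hold IDs only. The genes are Mt-nd1 (ENSRNOG00000030644), Mt-nd2 (ENSRNOG00000031033), Mt-nd3 (ENSRNOG00000033615), Mt-nd4 (ENSRNOG00000029707) and Mt-nd5 (ENSRNOG00000029971) of complex I, Mt-cyb (ENSRNOG00000031766) of complex III, Mt-co1 (ENSRNOG00000034234), Mt-co2 (ENSRNOG00000030371) and Mt-co3 (ENSRNOG00000030700) of complex IV, and Mt-atp6 (ENSRNOG00000031979) of complex V.

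The study measured polyA-selected liver RNA from 24 rat offspring at about postnatal day 48, in 4 groups of 6. During pregnancy, on gestation days 5 and 6, the mothers were placed for 4 hours a day in ozone at 0.8 ppm or in filtered air (12 in each arm). All 24 offspring were themselves exposed to ozone in postnatal weeks 5, 6 and 7, at 0.4 ppm in the first of these weeks and 0.8 ppm in the other two. The groups are therefore males of air-exposed dams, males of ozone-exposed dams, females of air-exposed dams and females of ozone-exposed dams, and the air and ozone of a group name below refer to the dam. No group without ozone after birth is analysed here. The labels carry sex under a genotype tag and name no strain, dam or litter, so littermates may be among the animals and the p-values measure the spread between these animals only. Rat numbers of the 4 groups fall in separate ranges, and index numbers in separate runs. The labels do not say whether either records an order of handling. If they do, that order and the group cannot be told apart.

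Mitochondrial DNA is transcribed from both strands as long precursors, which are cut into messenger RNAs, transfer RNAs and ribosomal RNAs, and the messenger RNAs are then stabilised or degraded at their own rates. The proteins it encodes sit in the inner membrane, where complexes I, III and IV pass electrons to oxygen and pump protons, and complex V uses the proton gradient to make ATP. Each of these complexes also needs subunits made from nuclear genes, and the liver, which oxidises fatty acids and makes glucose, is rich in mitochondria. Mt-nd4l, Mt-nd6 and Mt-atp8 are not among the 10 and were not analysed here.

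Library totals ran from 8462290 to 14564700 counts, except female ozone replicate 6 with 36232100, and 3 counts correspond to between 0.0872 and 0.344 CPM (counts scaled to a common library size), for counting error only. Every value of the 10 genes lies far above that floor, since the lowest was 412 CPM. Pairs of libraries of 1 group differed by more than counting error (chi-square per gene 21.8 to 127), so none was treated as a repeat. Male ozone replicate 2 stood apart from its group, with the lowest TMM scaling factor (0.851) and the lowest median correlation with its group (0.949) of the 24 libraries. The library names come in 2 forms, taken as library sets of 10 and 14 libraries. Each air group has 3 libraries of set 1 and 3 of set 2, and each ozone group 2 and 4. Shares, CPM and count ratios below are not adjusted for set. Between the sets edgeR's quasi-likelihood test called 0 of the 10 genes and 0 of 12854 genes in all (0% of the background). At an unadjusted p under 0.05 there were 0 of the 10 and 4.00% of all genes. All 10 fitted values were nonetheless lower in set 2, with log2 fold changes from -0.17 to -0.036. Their median was -0.073, beside 0.0011 over all genes. The tissue label could not be checked against liver markers because 0 of the 18056 IDs could be given a symbol from the reference table. Liver cell type markers and the nuclear genes of the same complexes were not tested for that reason.

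The 10 genes together made up a median of 7.83% of a library's counts, from 6.47% in female air replicate 5 to 9.91% in male ozone replicate 5. Their share was 7.89% ± 0.747 (SD, n = 6) in air males, 8.54% ± 1.27 (SD, n = 6) in ozone males, 7.43% ± 0.837 (SD, n = 6) in air females and 8.22% ± 1.18 (SD, n = 6) in ozone females. The group means were higher after maternal ozone by 0.641 percentage points in males and 0.789 in females, both less than the SD within the ozone groups, and the ranges overlapped. With 1 library left out, the difference ran from 0.366 (without male ozone replicate 5; 0.407 without replicate 3 and 0.411 without male air replicate 6) to 0.936 points in males, and from 0.503 (without female ozone replicate 2) to 1.13 in females. In library set 1 alone, with 3 air and 2 ozone libraries of each sex, the differences were 1.66 points in males and -0.106 in females. In set 2 alone, with 3 air and 4 ozone libraries of each sex, they were 0.169 and 1.53. In bulk tissue, fewer cells of a type and less RNA per cell cannot be told apart, and neither can be told apart from fewer mitochondria per cell.

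By mean CPM, the 10 genes ranked between 2 (Mt-co2) and 174 (Mt-nd3) among all IDs, a ranking of counts that are not divided by gene length. Between single libraries Mt-nd4, a membrane subunit of complex I, had the lowest coefficient of variation, 12.9% over 24 libraries, with levels from 2559 to 4082 CPM (1.60-fold). Mt-nd3, the smallest of these complex I subunits, had the highest, 28.9%, with levels from 412 to 1277 CPM (3.10-fold). Mt-co2, the subunit of cytochrome c oxidase that receives electrons from cytochrome c, had 27.7% and the widest span, from 12211 to 39359 CPM (3.22-fold), and the narrowest span was that of Mt-nd1 (1.56-fold). For 4 of the 10 genes (Mt-nd3, Mt-nd5, Mt-co2 and Mt-atp6) the variation exceeded the median of 21.7% among 9340 IDs with a mean count of at least 50.

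**Figure D1:**
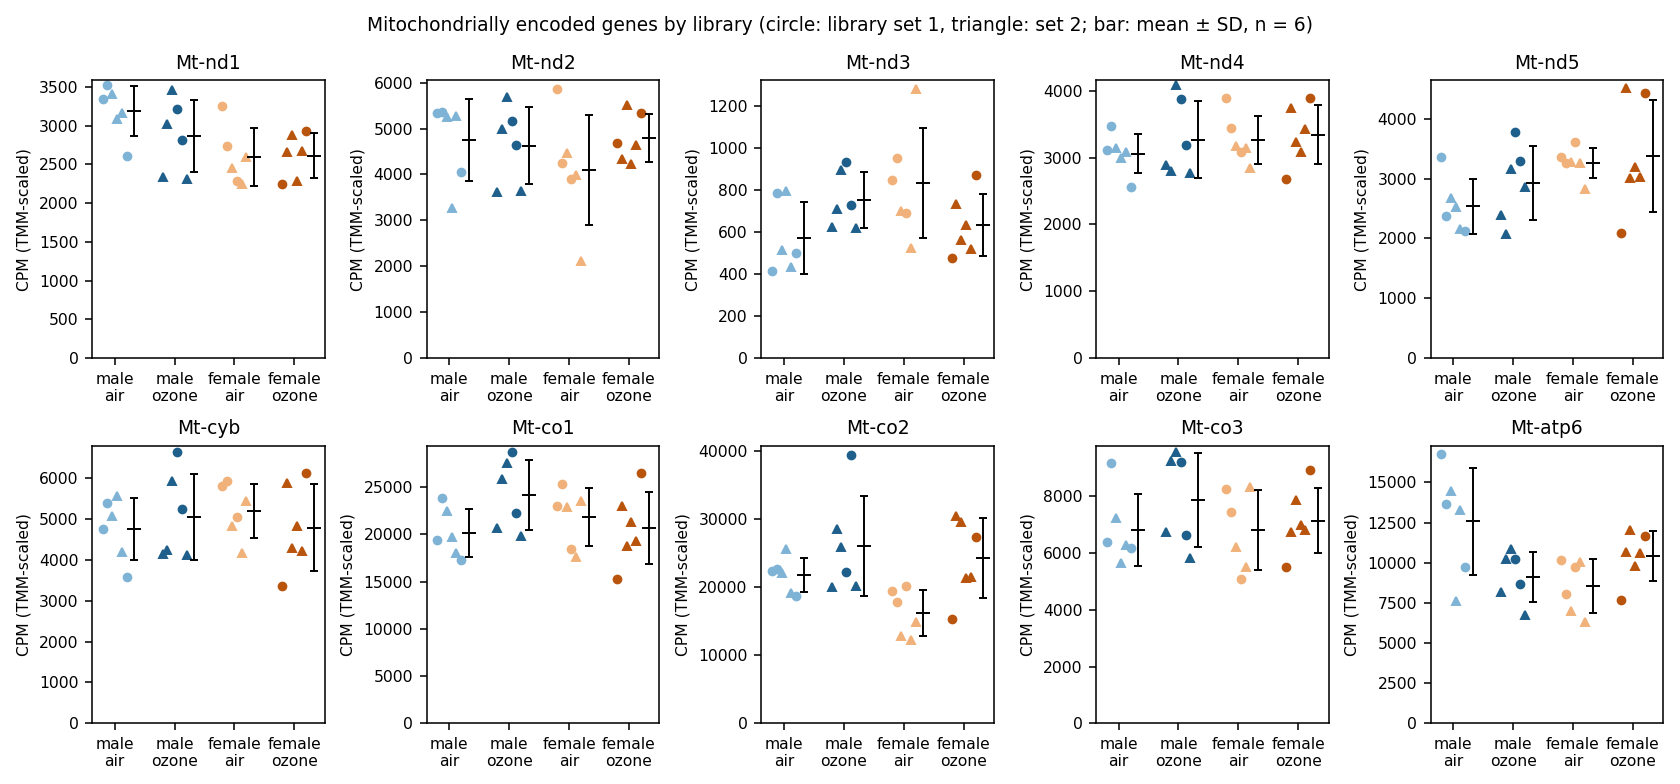
CPM of each of the 10 genes in each of the 24 libraries (vertical axis from 0, scaled by TMM), by sex and maternal exposure, with circles for library set 1, triangles for set 2 and the mean ± SD (n = 6) as a bar. Groups overlapped in every panel for both maternal comparisons and both sex comparisons, and the lowest Mt-nd2 and highest Mt-nd3 of all libraries are both in female air replicate 6, and the highest Mt-co2 in male ozone replicate 5 (39359 CPM).

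In males, maternal ozone went with no called difference in any of the 10 genes. A gene is called where edgeR's quasi-likelihood p, Benjamini-Hochberg adjusted over all genes tested, is under 0.05. Of the 10 genes 0 were called, against 21.3% of all 12541 genes. At an unadjusted p under 0.05 there was 1 of the 10, against 35.0% of all genes. DESeq2 also called 0, against 24.6% of all genes, and limma-voom 0, against 20.7%. Groups of CPM that do not overlap were found for 0 of the 10 and for 5.18% of all genes. The median log2 fold change of the 10 was 0.15, beside 0.00 over all genes (-0.0026 before rounding), with 7 above zero and 3 below. The 95% intervals of single genes reached from -0.85 to 0.77.

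Mt-atp6, the subunit of ATP synthase that forms part of its proton channel, was the gene with the smallest p in males. It had 7622 CPM at lowest, 13456 at the median and 16761 at highest in air males, and 6738, 9430 and 10826 in ozone males. Air males were mostly higher, with 4 of 6 libraries above every ozone male, but replicates 4 and 6 lay within the range of ozone males. The log2 fold change was -0.46 ± 0.19 (SE; 95% interval -0.85 to -0.063; edgeR adjusted p = 0.0901). Without male air replicate 4 it was -0.59 (edgeR adjusted p = 0.0322).

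Among the complex I genes in males, Mt-nd3 had 412, 507 and 792 CPM (lowest, median, highest) in air males and 616, 717 and 930 in ozone males, a log2 fold change of 0.38 ± 0.18 (SE; edgeR adjusted p = 0.148). Most air males were low for this gene, apart from replicates 2 and 4. Mt-nd1, Mt-nd2, Mt-nd4 and Mt-nd5 had log2 fold changes from -0.17 to 0.22. Mt-cyb, the electron-carrying core of complex III, was at 0.08. The cytochrome c oxidase genes had log2 fold changes of 0.25 (Mt-co1, edgeR adjusted p = 0.196), 0.25 (Mt-co2, edgeR adjusted p = 0.275) and 0.21 (Mt-co3, edgeR adjusted p = 0.384). None of the 3 was called. The Mt-co2 value fell to 0.078 (edgeR adjusted p = 0.749) without male ozone replicate 5, the library with 39359 CPM, while Mt-co1 stayed between 0.19 and 0.31 with any 1 library left out.

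In females, maternal ozone also went with no called difference. EdgeR called 0 of the 10 genes, against 0.271% of all 12538 genes, so the background itself was small. Non-overlapping CPM was found for 0 of the 10 and for 1.56% of all genes. At an unadjusted p under 0.05 there was 1 of the 10, against 16.0% of all genes. DESeq2 called 1 of the 10, against 3% of the 11073 genes to which it gave an adjusted p, and limma-voom called 0, against 0.335% of all genes. The median log2 fold change of the 10 was 0.05, beside 0.00 over all genes (0.00035 before rounding).

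Mt-co2 was the gene with the smallest p in females. It had 12211, 16334 and 20157 CPM (lowest, median, highest) in air females and 15234, 24388 and 30356 in ozone females. Of the 6 ozone females 5 were above every air female, and replicate 1 lay among them. The log2 fold change was 0.62 ± 0.19 (SE; 95% interval 0.22 to 1.03; edgeR adjusted p = 0.150), and 3.29% of genes had a smaller p. By DESeq2 it was 0.61 (DESeq2 adjusted p = 0.0388), and without female ozone replicate 1, edgeR gave 0.82 (adjusted p = 0.0450). The value was 0.14 in library set 1 alone and 0.94 in set 2 alone. Mt-co1, the catalytic subunit of the same complex, was at -0.07 and Mt-co3 at 0.08, and whether the 3 genes of complex IV differed from each other in this was not tested.

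The other genes in females had log2 fold changes from -0.38 (Mt-nd3, edgeR adjusted p = 0.374) to 0.29 (Mt-atp6, edgeR adjusted p = 0.392). For Mt-nd3 the air females had 524, 774 and 1277 CPM (lowest, median, highest) and the ozone females 475, 597 and 872. For Mt-atp6 they had 6292, 8878 and 10194, and 7657, 10624 and 12061. The air females were mostly lower in Mt-atp6 and higher in Mt-nd3, with overlap in both. Leaving out 1 library moved the Mt-nd3 value between -0.55 (without female ozone replicate 6) and -0.15 (without female air replicate 6), and the Mt-atp6 value between 0.19 and 0.42.

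**Figure D2:**
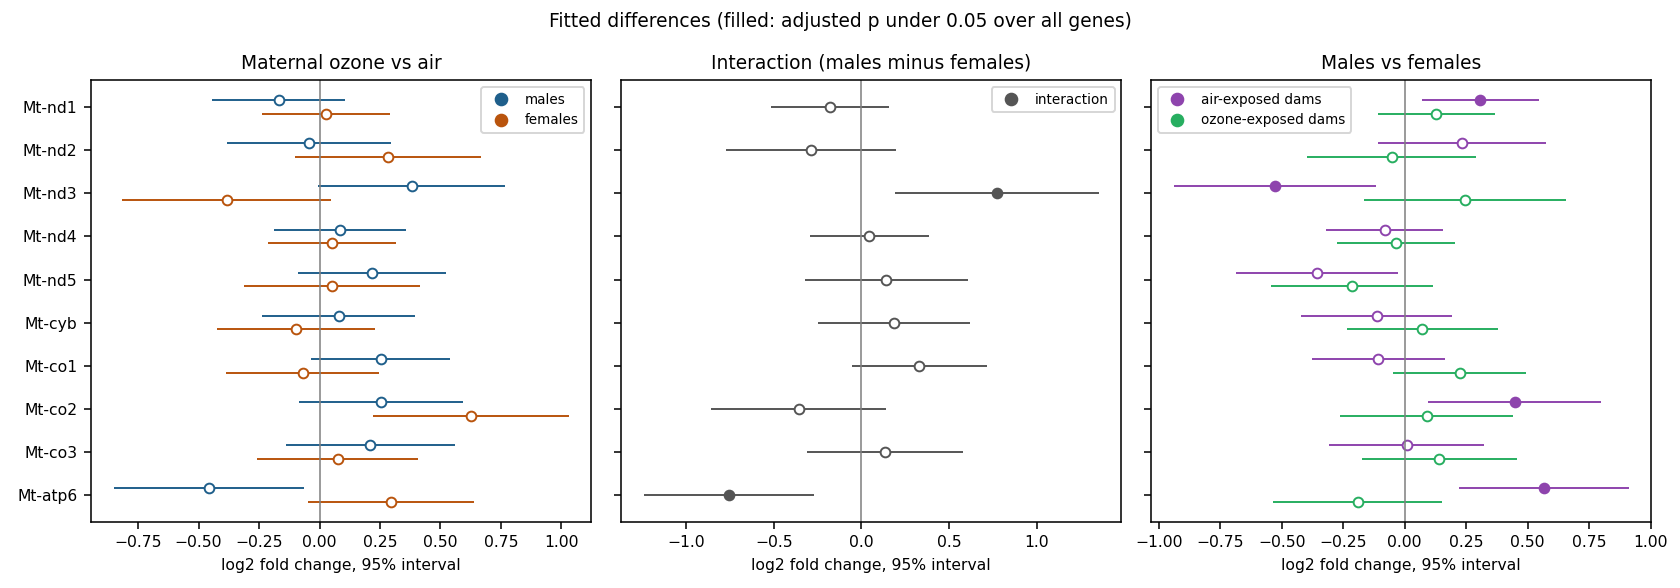
Fitted log2 fold change of each gene with its 95% interval for maternal ozone against air by sex (left), for the interaction (middle) and for males against females by maternal exposure (right), filled where the edgeR adjusted p was under 0.05. Only Mt-nd3 and Mt-atp6 are filled in the middle panel, and Mt-nd1, Mt-nd3, Mt-co2 and Mt-atp6 for air-exposed dams on the right.

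The interaction asks whether the maternal difference itself differs between the sexes. It was called for 2 of the 10 genes, with edgeR's test over 12854 genes, against 23.3% of all genes, so the count is close to the background share. For Mt-atp6 the maternal difference in males minus that in females was -0.76 ± 0.24 (SE; 95% interval -1.24 to -0.27; edgeR adjusted p = 0.0230). This call held without any single library, with adjusted p from 0.00877 to 0.0497. In each library set alone the sign was the same and the call was lost, at -0.58 (adjusted p = 0.385) in set 1 and -0.85 (adjusted p = 0.128) in set 2. For Mt-nd3 it was 0.77 ± 0.28 (SE; 95% interval 0.19 to 1.35; edgeR adjusted p = 0.0489). This call was lost when any of 16 of the 24 libraries was left out, and without female air replicate 6 it was 0.58 (adjusted p = 0.104). By group mean, Mt-atp6 was highest in air males (12584 CPM), followed by ozone females (10406), ozone males (9136) and air females (8547). The order of Mt-nd3 was the reverse, with air females (831 CPM) followed by ozone males (749), ozone females (632) and air males (572). Neighbours in both orders differed by less than the larger of their SDs. The other 8 genes had interaction values from -0.36 (Mt-co2) to 0.33 (Mt-co1), none called. The interaction uses the same libraries as the comparisons within each sex and between the sexes, so its calls are no separate evidence.

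Males and females of air-exposed dams differed in 4 of the 10 genes, 3 higher in males and 1 lower, against 51.5% of all genes called by edgeR, a share not above the background. Mt-atp6 was higher in males, with a log2 fold change of 0.57 ± 0.17 (SE; edgeR adjusted p = 0.00648), as were Mt-co2 at 0.45 ± 0.17 (SE; edgeR adjusted p = 0.0312) and Mt-nd1, a subunit near the quinone site of complex I, at 0.31 ± 0.12 (SE; edgeR adjusted p = 0.0288). Mt-nd3 was lower in males at -0.53 ± 0.20 (SE; edgeR adjusted p = 0.0299). Non-overlapping CPM was found for 0 of the 10, and for 26.6% of all genes. For Mt-nd1 air males had 2609, 3248 and 3521 CPM (lowest, median, highest) and air females 2251, 2523 and 3260. Apart from air male replicate 6 and air female replicate 1, every air male was above every air female. Mt-nd5, a proton-pumping subunit, was at -0.36 and missed the threshold (edgeR adjusted p = 0.0634).

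The Mt-atp6 call between air males and air females held without any single library and was lost in each library set alone (adjusted p = 0.108 and 0.0671). The other 3 calls depended on single libraries and on the settings. The Mt-nd1 call was lost without male air replicate 2 or 3 or female air replicate 3, 4 or 5 (adjusted p up to 0.0727). The Mt-co2 call was lost without male air replicate 3 or 4 or female air replicate 3, 5 or 6 (adjusted p up to 0.0796). The Mt-nd3 call was lost without male air replicate 1, 3, 5 or 6 or female air replicate 2 or 6 (adjusted p up to 0.146, at -0.33). Mt-nd5 was called without male air replicate 1 or female ozone replicate 1 or 2. On library totals without TMM factors, Mt-nd1 (adjusted p = 0.0692) and Mt-co2 (adjusted p = 0.0521) were lost and Mt-nd5 was gained (adjusted p = 0.0346). Mt-nd1 was also lost with no filter on low counts (adjusted p = 0.0532). In the library sets alone, Mt-nd1 (adjusted p = 0.428 in set 1 and 0.0720 in set 2) and Mt-nd3 (0.177 and 0.160) were lost in both, and Mt-co2 in set 1 (0.649).

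Between males and females of ozone-exposed dams, edgeR called 0 of the 10 genes, against 5.76% of all genes. Non-overlapping CPM was found for 0 of the 10 and 3.84% of all genes, and 0 of the 10 had an unadjusted p under 0.05, against 18.3% of all genes. DESeq2 also called 0, against 7.52% of all genes, and limma-voom 0, against 5.91%. The log2 fold changes ran from -0.22 (Mt-nd5) to 0.24 (Mt-nd3), with Mt-co1 at 0.22 (edgeR adjusted p = 0.392). A test that misses the threshold does not show equal levels: the intervals of single genes reached from -0.54 to 0.66.

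**Figure D3:**
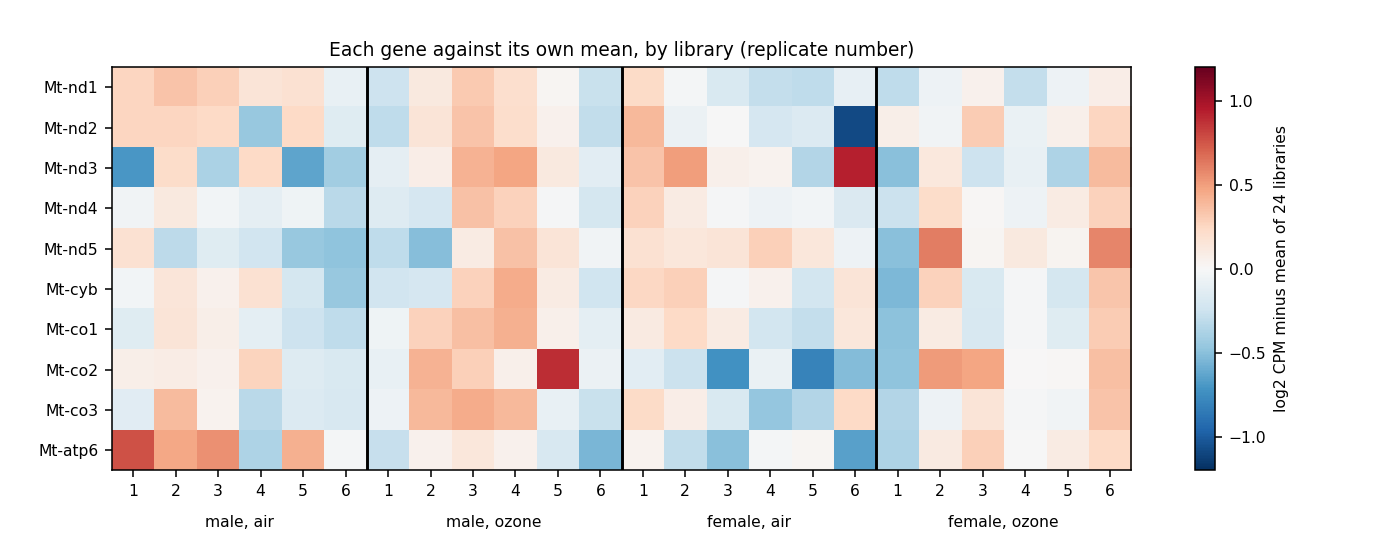
Log2 CPM of each gene (rows) minus its mean over the 24 libraries, by library (columns, replicate numbers within the 4 groups). Male air replicate 4 and female air replicate 6 are low in Mt-nd2 and Mt-atp6 and high in Mt-nd3, against the other genes of the same library.

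Within a library the genes did not move as 1 block. Over the 45 pairs of genes, with group means removed, the correlation of log2 CPM across the 24 libraries had a median of 0.50 and ran from -0.22 to 0.85. These are descriptions, since all pairs share the libraries, their depth and their scaling. Mt-cyb and Mt-co1 were the closest pair (0.85). Mt-co1 and Mt-co3 (0.83) and Mt-nd1 and Mt-nd4 (0.81) also moved closely, and Mt-nd2 was closest to Mt-atp6 (0.74). The 2 negative pairs both held Mt-nd3, with Mt-nd2 (-0.22) and with Mt-atp6 (-0.19). Mt-nd2 had the lowest median correlation with the other 9 genes (0.26) and Mt-co1 the highest (0.71).

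**Figure D4:**
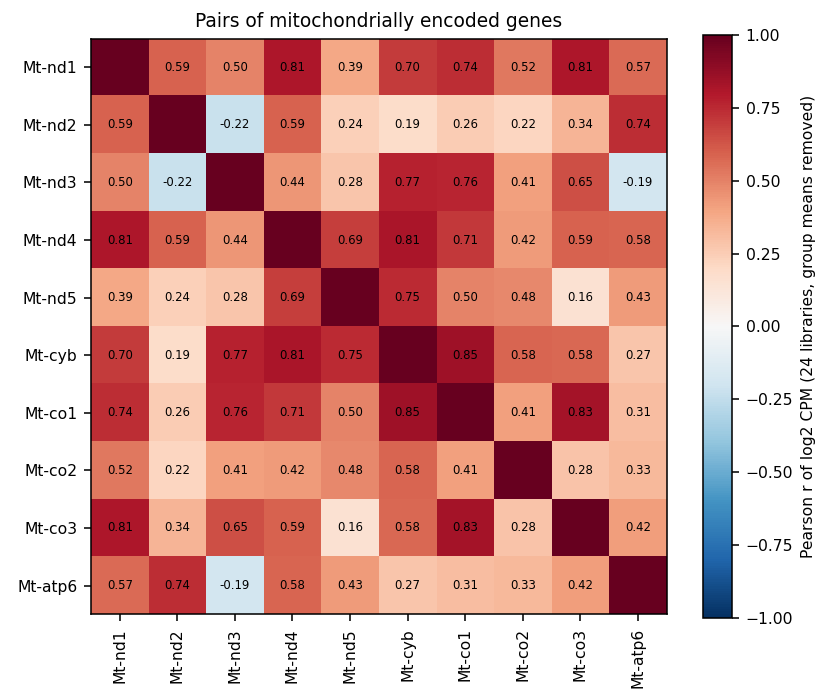
Pearson correlation of log2 CPM for each pair of the 10 genes over 24 libraries after removal of group means, with the value in each cell. Mt-cyb with Mt-co1 is highest (0.85), and Mt-nd3 with Mt-nd2 (-0.22) and with Mt-atp6 (-0.19) are the only pairs below zero.

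The libraries with the lowest Mt-nd2 in the 2 air groups share this arrangement. Male air replicate 4 had 3260 CPM of Mt-nd2, 7622 of Mt-atp6 and 792 of Mt-nd3, and female air replicate 6 had 2108, 6292 and 1277. In both, Mt-nd2 and Mt-atp6 were the lowest of their group and Mt-nd3 the highest. The count ratio of Mt-nd3 to Mt-nd2 was 0.243 and 0.606 in these libraries, beside group medians of 0.111 and 0.167. Without both, edgeR called 2 of the 10 genes between air males and air females in place of 4, against 48.1% of all genes (51.5% with both), losing Mt-nd1 (adjusted p = 0.0522) and Mt-co2 (adjusted p = 0.109). Leaving both out was chosen after the values were seen.

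Ratios of counts within a library do not depend on its depth or scaling. The ratio of Mt-atp6 to Mt-nd3 was 24.3 ± 11.04 (SD, n = 6) in air males, 12.3 ± 1.33 (SD, n = 6) in ozone males, 11.4 ± 4.91 (SD, n = 6) in air females and 16.9 ± 3.25 (SD, n = 6) in ozone females. It ran from 9.62 to 40.7 in air males alone. The ratio of Mt-co2 to Mt-co1 was 0.754 ± 0.191 (SD, n = 6) in air females and 1.17 ± 0.232 (SD, n = 6) in ozone females. It was 1.09 ± 0.124 (SD, n = 6) in air males and 1.09 ± 0.346 (SD, n = 6) in ozone males. In ozone males the median was 0.994 and replicate 5 was at 1.76. The ratio of Mt-nd4 to Mt-nd1 was 0.961 ± 0.0274 (SD, n = 6) in air males, with a range of 0.923 to 0.988. It was 1.15 ± 0.114 in ozone males, 1.26 ± 0.108 in air females and 1.28 ± 0.105 in ozone females (SD, n = 6 each). All libraries of the other 3 groups were above every air male, except male ozone replicate 2 at 0.924. These pairs were picked after their values were seen, and no difference between groups was tested for them.

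**Figure D5:**
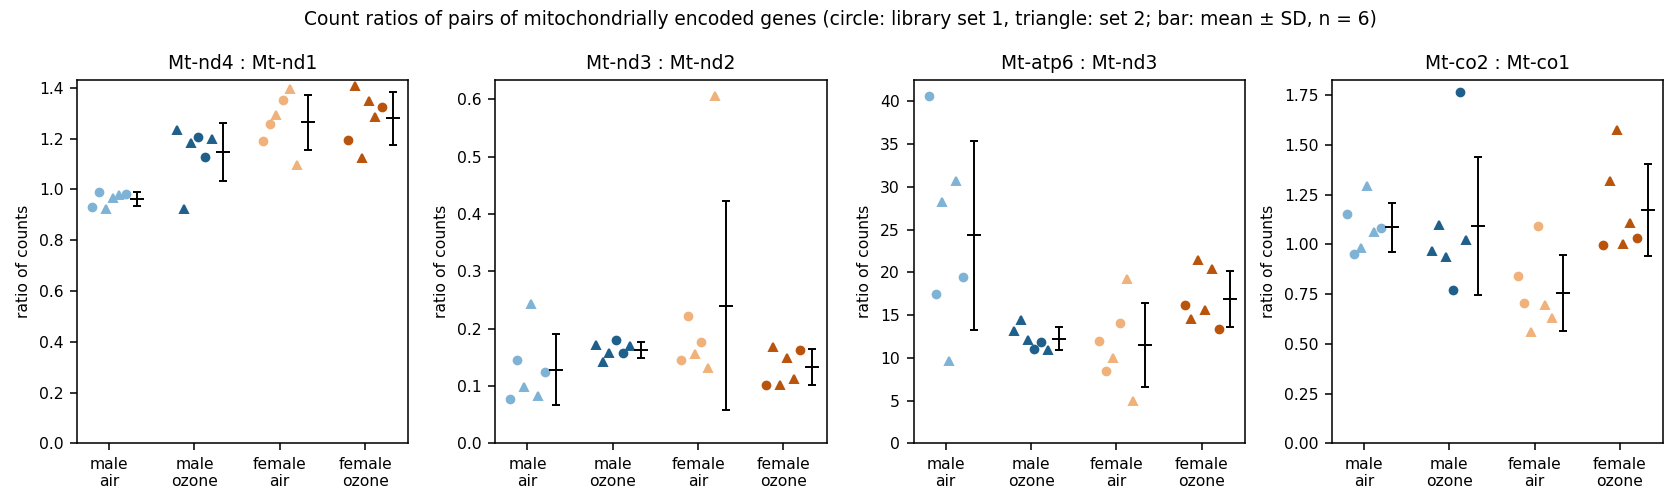
Ratio of counts for 4 pairs of genes in each library, by group, with circles for library set 1, triangles for set 2 and the mean ± SD (n = 6) as a bar; each vertical axis starts at 0. The ratio of Mt-nd4 to Mt-nd1 lies between 0.923 and 0.988 in air males and above that in every other library but male ozone replicate 2 (0.924).

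To ask how the 10 genes divide their own total, all counts were also tested with the total of the 10 genes as the library size, a scaling chosen after the data were seen. Shares of 1 total are tied to each other, so a higher share of 1 gene goes with lower shares of others. This scaling also takes variation that the 10 genes share out of their values and puts it into those of all other genes. The percentages over all genes given with it, here and below, are therefore not a like background for the 10. In males edgeR then called 1 of the 10, Mt-atp6, at -0.56 ± 0.16 (SE; edgeR adjusted p = 0.0230), against 12.5% of all genes. Its share of the 10 genes' counts was 15.6% ± 3.35 (SD, n = 6) in air males and 10.5% ± 0.977 (SD, n = 6) in ozone males. Groups that do not overlap on this scaling were found for 1 of the 10, Mt-nd1, and for 2.58% of all genes. The share of Mt-nd1 was 3.88% at lowest, 3.93% at the median and 4.21% at highest in air males, and 2.91%, 3.33% and 3.56% in ozone males, yet its fitted value of -0.28 was not called (edgeR adjusted p = 0.176).

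In females on the same scaling edgeR called 0 of the 10, against 0.215% of all genes, with Mt-nd3 at -0.57 (edgeR adjusted p = 0.198) and Mt-co2 at 0.42 (edgeR adjusted p = 0.276). Both had an unadjusted p under 0.05 (0.00596 and 0.0268). Non-overlap was found for Mt-cyb, 1 of the 10, and for 0.678% of all genes. The share of Mt-cyb was 6.65%, 7.06% and 7.74% (lowest, median, highest) in air females and 4.89%, 5.95% and 6.36% in ozone females. Its fitted value was -0.30 (edgeR adjusted p = 0.400), beside a median of -0.16 over all genes on this scaling. With TMM scaling Mt-cyb was at -0.099 (edgeR adjusted p = 0.788), and its CPM overlapped between the groups. The interaction was called for the same 2 genes as with TMM scaling, against 11% of all genes. Mt-nd3 was at 0.84 (edgeR adjusted p = 0.0303) and Mt-atp6 at -0.67 (edgeR adjusted p = 0.0462).

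Between air males and air females on this scaling, edgeR called 3 of the 10, against 41.8% of all genes. Mt-nd3 was lower in males at -0.67 (edgeR adjusted p = 0.00337), Mt-nd5 lower at -0.52 (edgeR adjusted p = 0.00632) and Mt-atp6 higher at 0.40 (edgeR adjusted p = 0.0408). Mt-nd5 was the 1 gene of the 10 without overlap, beside 20.5% of all genes. Its share was 2.64% to 3.95% in air males and 4.00% to 5.20% in air females. Between ozone males and ozone females 0 of the 10 were called, against 3.29% of all genes, with the smallest unadjusted p at 0.0898 (Mt-atp6). Mt-atp6 was the 1 gene without overlap, beside 2.15% of all genes, with a share of 8.93% to 11.4% in ozone males and 11.5% to 13.8% in ozone females.

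Counts of Mt-atp6 were not whole in 9 of the 24 libraries, while those of the other 9 genes were whole in all. The counts that were not whole ran from 71143.5 (male ozone replicate 1) to 97540.2 (female air replicate 2). Every higher Mt-atp6 count was whole, and all counts of Mt-co1 and Mt-co2 were higher than these. Whether decimals were dropped from larger numbers in the deposited values cannot be told, so whole counts in that range show little. No other ID had the same counts as any of the 10. Mt-atp6 overlaps Mt-atp8 on mitochondrial DNA, and nuclear copies of mitochondrial genes are known. How the authors assigned reads that match more than 1 place is not stated in the labels, and its part in the values was not tested. Sequences of the 10 genes are not shown because the reference used here holds no entry for them.

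Outside the 10 genes, the IDs whose log2 CPM followed the mean of the 10 most closely over 24 libraries were ENSRNOG00000050277 (Pearson r 0.74) and ENSRNOG00000033299 (0.73), among 9330 IDs with a mean count of at least 50. ENSRNOG00000014104 (-0.67) and ENSRNOG00000017730 (-0.63) were the most opposed. The first had 12.4 to 19.6 CPM and the second 677 to 1225. Mt-nd4 itself had 0.86 with the mean of the 10, which includes it, and Mt-atp6 0.47.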

How the data were processed

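Per the labels' protocols, liver total RNA with RIN values above 7 went through polyA selection. The tools that the submitters' processing notes list are STAR 2.6.1d, Partek and DESeq2, on build rn6, without saying what each did. For the annotation release, strand setting and filters, nothing was given in the sources used here. Values are expected counts as the authors deposited them (estimated counts per gene, not divided by length or depth, per the file headers and the values), in 1 table per sex. The tables hold 23 further library columns, which were not used here. Rounding to whole numbers moved no library total by more than 0.00038%.

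All genes were fitted with edgeR 4.0.16 in R 4.3.3 by the robust quasi-likelihood test, with TMM normalization, filterByExpr (minimum count 10, minimum total 15) and library set as covariate. Each sex was fitted by itself, and all 24 libraries together for the interaction and the sex comparisons. Genes were called at a Benjamini-Hochberg adjusted p under 0.05. SEs were derived from the test statistic, and the prior count for log2 CPM was 2. The fits within each sex and of the interaction were tried on simulated counts, drawn independently for each gene and library. The sex comparisons were not tried in this way, and no result here rests on the simulation. The named genes are the 10 members and, by their correlation with the members' mean, 2 IDs at each end. The members and lists were chosen with earlier results of these data known. Alternatives were DESeq2 1.42.0, limma-voom (limma 3.58.1), other normalizations and filters, no library set term, each set alone, 1 joint fit and each library left out. Dividing by the total of the 10 genes, and leaving out the air libraries lowest in Mt-nd2, were added after the data were seen.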

Additional observations from a re-analysis of the deposited data

Results flagged for a closer look

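Among 100 sets of 6 libraries tested with Dixon's criterion (CPM, shares and count ratios of the 10 genes by group), 8 had 1 library far from the others. For separate sets fixed in advance, chance would give about 1 in 20. These values overlap in the counts they use, and the pairs of the count ratios were picked after their values were seen. The rate of 1 in 20 therefore does not apply to the ratios. It does not apply to shares of the 10 genes' total either, which are tied to each other and were also added after the data were seen. Male ozone replicate 5 had 23.0% of the 10 genes' counts in Mt-co1 and a Mt-co2 to Mt-co1 count ratio of 1.76. Male air replicate 4 had 33.3% in Mt-co2 and 7.23% in Mt-cyb. Female ozone replicate 2 had 7.28% in Mt-co3. Female air replicate 6 had 1.82% in Mt-nd3 and a Mt-nd3 to Mt-nd2 count ratio of 0.606. Male ozone replicate 2 had a Mt-nd4 to Mt-nd1 count ratio of 0.924, within the range of air males. No set of CPM values of 1 gene in 1 group had such a library. EdgeR's interaction test called 2 of the 10 genes, Mt-nd3 (0.77 on the log2 scale) and Mt-atp6 (-0.76), against 23.3% of all genes. The Mt-nd3 call was lost when any of 16 of the 24 libraries was left out. Both calls were lost in each library set alone.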

How the results depend on the processing

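No paired analysis was possible because the labels give no replicate number that pairs animals. The number of the 10 genes called in females was 1 by DESeq2, which called 332 genes in all (34 in the main fit). In the interaction it was 1 with no filter (Mt-nd3 was lost), 0 in library set 1 alone and 0 in set 2 alone. These fits called 2634, 432 and 450 genes in all, beside 2994 in the main fit. Between air males and air females it was 0 in set 1 alone, 1 in set 2 alone and 2 without both air libraries lowest in Mt-nd2. All genes called were 3404, 4551 and 6229 in these fits, beside 6621 in the main fit. In males it was 1 with counts set against the total of the 10 genes, where 1566 genes were called in all (2670 in the main fit). Each set alone has fewer libraries. With 1 library left out, the number called ran from 0 to 1 in males. It was 1 without male air replicate 4 (1758 genes called in all). In females it ran from 0 to 1, and was 1 without female ozone replicate 1 (19 genes in all). In the interaction it ran from 1 to 2, with 2371 to 3361 genes called in all where it was 1. Between air males and air females it ran from 1 to 5, beside 4 of the 10 and 51.5% of all genes in the main fit. It was 1 without male air replicate 3 (6567 genes in all) and 2 without female air replicate 3, 5 or 6 (6102, 6350 and 6525). Between ozone males and ozone females it was 0 under every alternative, where the main fit called 741 genes in all. For other changes of call and sign the cause was not tested.

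Of the log2 fold changes of the single genes, 1438 values under alternatives kept direction and call, 51 lost the call, 9 gained it and 62 changed sign, all 62 for values that were not called. Changed signs in females were, for Mt-nd5, -0.0065 by limma-voom and, in library set 1 alone, -0.098 for Mt-nd1, -0.087 for Mt-nd4 and -0.078 for Mt-nd5. In males Mt-cyb was -0.096 in set 2 alone. In the interaction set 1 alone gave 0.00020 for Mt-nd1 and 0.36 for Mt-co2, and set 2 alone -0.11 for Mt-nd4, -0.034 for Mt-nd5 and -0.095 for Mt-cyb. Between air males and air females Mt-co3 was -0.058 on library totals only, -0.0012 with no filter and -0.062 in set 2 alone, where Mt-nd4 was 0.0100 and Mt-cyb 0.042. Between ozone males and ozone females set 1 alone gave 0.11 for Mt-nd4 and 0.13 for Mt-nd5, and set 2 alone -0.053 for Mt-cyb and -0.11 for Mt-co2. Against the total of the 10 genes, males had -0.022 for Mt-nd4 and -0.025 for Mt-cyb, females -0.14 for Mt-nd1, -0.13 for Mt-nd4, -0.17 for Mt-nd5 and -0.10 for Mt-co3, and air males against air females -0.14 for Mt-co3. That scaling moved the median of all genes to -0.10 in males and -0.16 in females. It was -0.13 between air males and air females and -0.091 between ozone males and ozone females.

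With 1 library left out, values that crossed zero ran, in males, from -0.15 to 0.015 (Mt-nd2) and -0.018 to 0.15 (Mt-cyb), and in females from -0.0084 to 0.0997 (Mt-nd1), -0.0076 to 0.15 (Mt-nd4), -0.10 to 0.21 (Mt-nd5), -0.21 to 0.036 (Mt-cyb), -0.19 to 0.037 (Mt-co1) and -0.033 to 0.17 (Mt-co3). They ran from -0.047 to 0.087 for Mt-nd4 in the interaction and from -0.0896 to 0.094 for Mt-co3 between air males and air females. Between ozone males and ozone females they ran from -0.14 to 0.0070 (Mt-nd2), -0.12 to 0.013 (Mt-nd4), -0.029 to 0.15 (Mt-cyb) and -0.044 to 0.18 (Mt-co2). No library had less than 412 CPM of any gene described here, a value of Mt-nd3, which is not among those that crossed zero. A part of depth in these values was not tested.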
